A study of Mus musculus with 16 samples.

Results

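The genes described here are 41 genes of DNA replication and cell division, followed through the growth of the mouse epididymis, the long tubule downstream of the testis in which sperm mature, formed from the Wolffian duct of the embryo. They were picked by name as known genes of these functions, with earlier results of these data known, and each was read from its brightest probe set with a single gene symbol over 15 epididymis arrays. By role they comprised 17 replication genes, 4 regulators of the step from G1 into S phase, 17 genes of mitosis and 3 D-type cyclins. All 41 had a probe set, among 18193 genes in the table with one, and all 41 passed the filter on dim probe sets, as did 12216 genes in all.

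A dividing cell copies its DNA in S phase and separates the copies in mitosis, and the genes for these tasks are transcribed in waves. E2F factors activate replication genes toward S phase, while many mitotic genes carry a CHR element and CCAAT boxes and are held back until late in the cycle. D-type cyclins stand apart: they are induced by growth signals, pair with Cdk4 and Cdk6, and inactivate the retinoblastoma family that restrains E2F. In a growing organ the transcripts of the first 2 kinds are therefore widely read as marks of cells in cycle.

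RNA was measured on Affymetrix arrays on days 12 (gd12), 14 (gd14), 16 (gd16) and 18 (gd18) of gestation and 2 days after birth (pnd2), labelled as Theiler stages 20, 22, 24, 26 and 27. Each stage had 3 arrays. Every sample was both epididymides of 1 wild-type CD-1 male, not pooled with others, and no dam gave more than 1 animal. CD-1 is an outbred stock, and no treatment or altered allele was used in any group. The organs were excised whole, so each sample mixes duct, stroma and whatever adhered to them, and the RNA protocol in the labels is written for whole testes. A further array held a pool of 8 whole newborns at postnatal day 0.5, 4 male and 4 female, which the study used as a common reference and which entered no test. Signals are relative levels on a linear scale, so a gene is compared between stages and not with another gene.

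One array stood apart. For pnd2 replicate 3 the 3'/5' signal ratio, a measure of RNA integrity and labelling, was 63.16 for Gapdh (4.333 to 7.18 elsewhere) and 80.73 for Actb (2.404 to 4.141 elsewhere). Of the 41 genes, 14 differed there by 2-fold or more from the mean of pnd2 replicates 1 and 2, 9 lower and 5 higher (34.1%, against 36.2% of all genes tested), whereas 0 of the 41 differed so much between replicates 1 and 2 (3.99% of all genes). All 15 arrays share 1 estimate of the spread in the fit, so the counts of the 41 genes, and the single values that change most, are also given without this array. Its part in the results beyond these values was not tested.

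Promoters that carry the 2 classic signatures are shown first, because their letters differ between the replication and mitotic genes. RefSeq starts (assembly GRCm38.p6) were matched for 33 of the 41 genes. Windows of 300 bases, from 250 before to 50 after the start, were searched on both strands for E2F letters (TTTCCCGC, TTTCGCGC, TTTGGCGC or TTTGCCGC), for the CHR letters TTTGAA and for CCAAT. The 250 bases before the start are printed 5' to 3' on the gene's strand, with matches in capitals. Mcm6, a subunit of the replicative helicase, and Cdc6, which loads that helicase at origins, stand for replication. Cdc20, which activates the anaphase-promoting complex, and Top2a, the topoisomerase that untangles sister chromosomes, stand for mitosis. Cdk1, the kinase that drives entry into mitosis, holds both kinds of letters. Mcm6 is at chr1:128359706-128359955 (minus strand), Cdc6 at chr11:98907901-98908150 (plus), Cdc20 at chr4:118437344-118437593 (minus), Top2a at chr11:99024190-99024439 (minus) and Cdk1 at chr10:69352913-69353162 (minus).
Mcm6: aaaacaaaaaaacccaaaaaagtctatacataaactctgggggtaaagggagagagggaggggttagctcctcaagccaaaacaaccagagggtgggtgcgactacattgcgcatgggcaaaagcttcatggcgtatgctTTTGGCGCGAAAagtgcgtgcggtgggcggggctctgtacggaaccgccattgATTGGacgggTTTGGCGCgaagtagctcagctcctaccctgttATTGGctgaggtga
Cdc6: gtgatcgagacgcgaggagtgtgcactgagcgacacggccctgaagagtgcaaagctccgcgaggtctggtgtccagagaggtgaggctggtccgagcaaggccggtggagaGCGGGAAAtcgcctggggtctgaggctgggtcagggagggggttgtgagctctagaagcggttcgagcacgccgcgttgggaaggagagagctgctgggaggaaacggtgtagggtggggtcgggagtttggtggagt
Cdc20: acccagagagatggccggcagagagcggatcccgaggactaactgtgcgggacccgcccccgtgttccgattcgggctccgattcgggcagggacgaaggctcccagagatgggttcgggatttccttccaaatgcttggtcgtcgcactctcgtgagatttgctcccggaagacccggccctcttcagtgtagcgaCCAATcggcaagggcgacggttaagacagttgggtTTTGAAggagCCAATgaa
Top2a: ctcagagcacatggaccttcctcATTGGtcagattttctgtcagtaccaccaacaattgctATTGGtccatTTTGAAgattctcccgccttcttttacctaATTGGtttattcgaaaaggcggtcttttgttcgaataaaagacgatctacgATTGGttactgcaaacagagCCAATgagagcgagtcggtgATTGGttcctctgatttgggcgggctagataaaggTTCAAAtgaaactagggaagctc
Cdk1: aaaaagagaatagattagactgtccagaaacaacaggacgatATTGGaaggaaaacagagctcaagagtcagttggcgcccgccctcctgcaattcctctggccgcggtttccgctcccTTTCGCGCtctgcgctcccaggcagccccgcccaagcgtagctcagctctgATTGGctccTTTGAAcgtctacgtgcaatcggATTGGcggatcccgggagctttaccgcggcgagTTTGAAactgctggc
In Mcm6 the capitals near the middle are overlapping E2F matches on opposite strands, a further E2F match lies nearer the start, and CCAAT matches read ATTGG on the reverse strand. Cdc6 holds a single E2F match and no CHR or CCAAT match. Cdc20 holds its CHR match 18 bases before the start, between CCAAT matches at 53 and 8 bases. Top2a holds 6 CCAAT matches and 2 CHR matches.

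Across the matched genes, E2F letters were found in 8 of 15 replication genes (53.3%), in 1 of 14 mitotic genes (7.14%, Cdk1) and in 2.6% of all 27025 genes in the table. CHR letters were found in 11 of 14 mitotic genes (78.6%), in 2 of 15 replication genes (13.3%) and in 20.2% of all genes. CCAAT was found in 12 of 14 mitotic genes (85.7%), 10 of 15 replication genes (66.7%) and 41.1% of all genes. None of the 3 matched G1/S regulators, Mybl2, E2f1 and Ccne1, held any of these letters, which says only that these letters are not in these windows. Such matches are descriptions and not shown sites of binding.

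**Figure D1:**
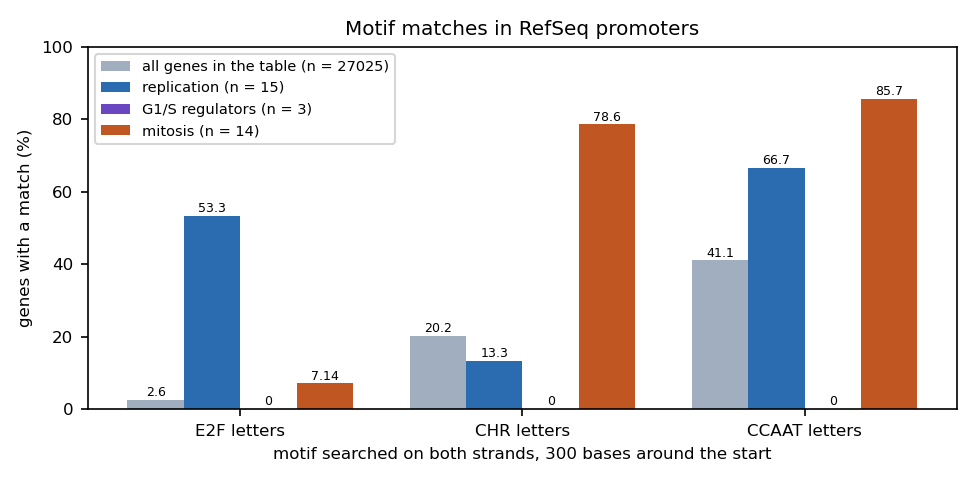
Percentage of genes with at least 1 match (y axis) to the E2F, CHR or CCAAT letters in RefSeq promoter windows of 300 bases, for all genes in the table and for 3 of the gene classes. E2F letters stand out in replication genes (53.3% against 2.6% of all genes) and CHR letters in mitotic genes (78.6% against 20.2%); G1/S regulators are at 0 for each.

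The main event in these genes was a fall from gd12 to gd14. With limma and Benjamini-Hochberg adjustment over all genes tested, 20 of the 41 genes fell and 1 rose at an adjusted p under 0.05, where 12.5% of all genes were called, 5.75% lower and 6.72% higher. Lower calls comprised 10 of 17 replication genes, 9 of 17 mitotic genes and 1 of 4 G1/S regulators, and the gene that rose was the D-type cyclin Ccnd2. The median log2 change was -0.60 for replication genes and -0.80 for mitotic genes, against 0.03 over all genes. The gd12 arrays lay wholly above the gd14 arrays for 31 of the 41 genes (20.6% of all genes) and wholly below for 3 (22.1%), which were the D-type cyclins. Because the organ was measured in bulk, fewer dividing cells, less RNA of these genes per cell and a changed mix of cells in the sample cannot be told apart.

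Without pnd2 replicate 3 the count of called genes was 31, with all 21 among them, where 30.2% of all genes were called (14.3% lower, 15.9% higher). It then held 13 replication genes, 14 mitotic genes and Mybl2 lower, and all 3 D-type cyclins higher. Leaving out gd12 replicate 14 lowered the counts. Without it 4 of 21 replication and G1/S genes and 3 of 17 mitotic genes were called, and 853 of all genes against 1523. With any 1 gd14 array left out 5 mitotic genes were called, and without gd14 replicate 11 6 replication and G1/S genes. Over the 15 fits without 1 array, the count of all genes called ran from 853 to 3634.

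**Figure D2:**
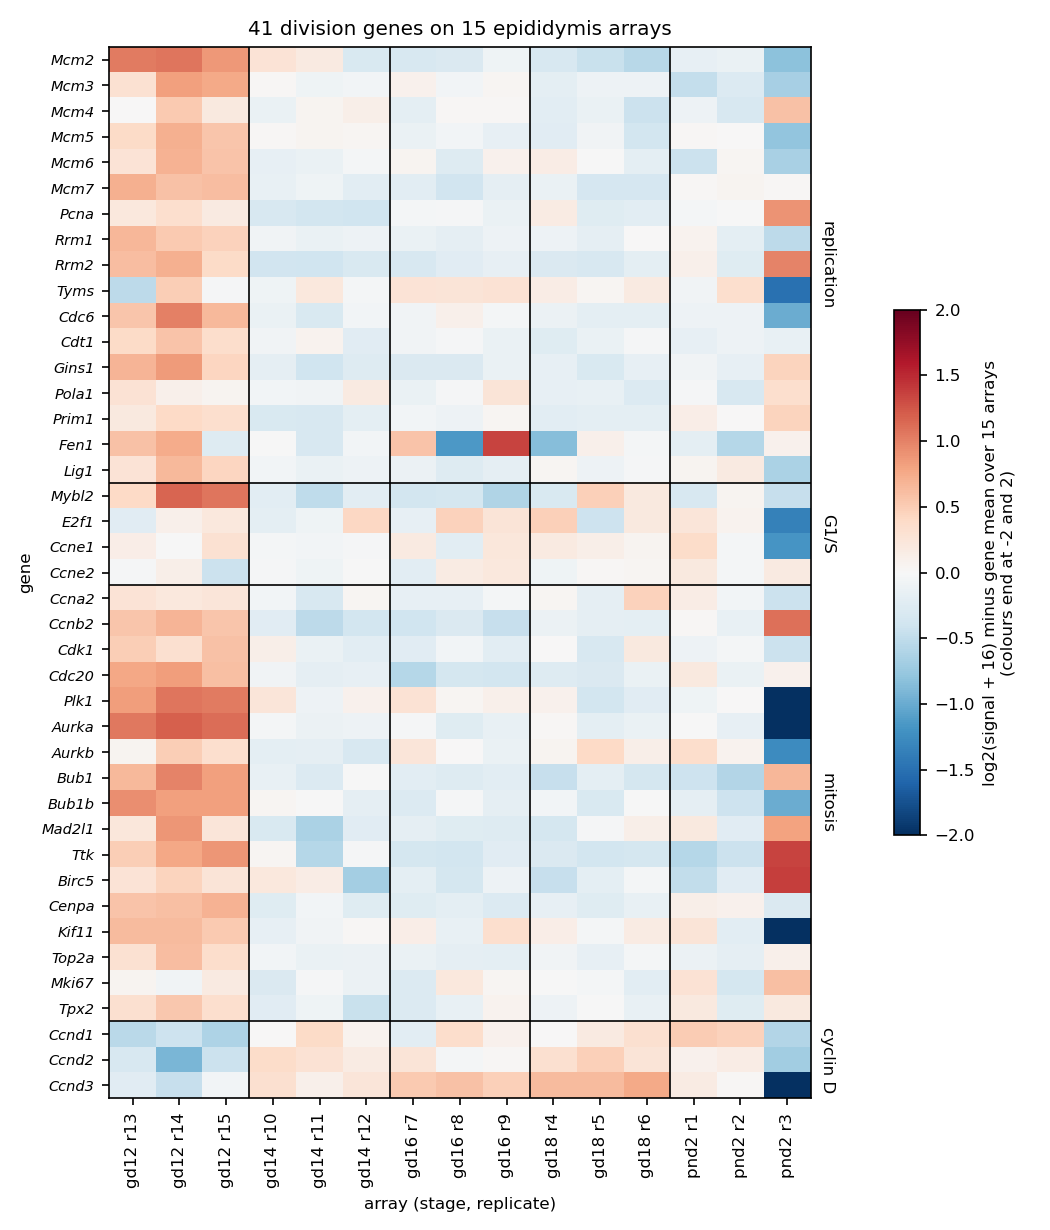
Log2(signal + 16) of each of the 41 genes minus its own mean over 15 arrays, with arrays in columns by stage and genes in rows by class; red is above and blue below the gene's mean. The 3 gd12 columns are red for most replication and mitotic genes and blue for the D-type cyclins, and the pnd2 replicate 3 column (r3) differs from its neighbours in both directions.

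Of the 6 helicase subunits, 4 fell. Mcm2 to Mcm7 form the ring that unwinds DNA at the fork. Mcm7 had signals of 21011, 19223 and 19674 at gd12 and 11527, 12103 and 11125 at gd14. It then read 11074, 9867 and 11331 at gd16, 11685, 10138 and 10174 at gd18, and 13004, 13241 and 12960 at pnd2. Every gd12 array was far above every later array, pnd2 replicate 3 included, and the later stages lay close together. The change was -0.78 ± 0.10 (SE of the fit, n = 3 arrays per stage; limma adjusted p = 0.000159), a 1.72-fold fall, and it was called in all 26 alternative settings.

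Mcm2 had signals of 4910, 5022 and 4331 at gd12, 2875, 2690 and 1922 at gd14, and 1901, 1941 and 2233 at gd16. At gd18 it read 1903, 1735 and 1619, and at pnd2 2116, 2155 and 1337. It fell by 0.94 on the log2 scale by gd14 (SE 0.20, limma adjusted p = 0.00605), and its gd18 arrays were all below its gd16 arrays except for replicate 4, which read between gd16 replicates 7 and 8. Mcm3 (-0.67 ± 0.16) and Mcm6 (-0.62 ± 0.18) fell as well, with limma adjusted p of 0.0124 and 0.0397. Mcm5 came to -0.51 ± 0.19 and passed only without pnd2 replicate 3 (limma adjusted p 0.0938, and 0.00124 without it).

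Mcm4 was the only subunit of the ring not called from gd12 to gd14 in either fit. Its signals were 5225, 7489 and 5973 at gd12 and 4761, 5389 and 5634 at gd14, so the stages overlapped, and the change of -0.23 ± 0.21 was not called with or without pnd2 replicate 3. Its dimmer probe set, also at or above the array median on all 15 arrays, gave -0.55 in the same comparison and -0.84 from gd12 to gd18. Without pnd2 replicate 3 the brightest probe set was called lower over the longer spans. It came to -0.50 ± 0.13 from gd12 to gd18 and -0.46 ± 0.15 from gd12 to pnd2 (limma adjusted p = 0.00617 and 0.0243).

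Genes that load and fire origins fell as well. Gins1, part of the complex that activates the helicase, read 1951, 2207 and 1643 at gd12 and 1070, 917.3 and 1007 at gd14. Cdc6 read 1863, 2577 and 1984 at gd12, 1159, 1021 and 1214 at gd14, and 1206, 1355 and 1229 at gd16. The lowest gd12 array of either gene was above the highest at gd14, and the changes were -0.94 ± 0.18 for Gins1 and -0.90 ± 0.22 for Cdc6 (limma adjusted p = 0.00328 and 0.0146). Cdt1, the partner of Cdc6 in loading, fell by 0.51 (SE 0.12, limma adjusted p = 0.0128).

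For the supply of nucleotides the same step was called for 1 enzyme, and another was too dim and variable to judge. Rrm1 and Rrm2 are the large and small subunits of ribonucleotide reductase, which makes deoxynucleotides. Rrm2 read 7952, 8466 and 6718 at gd12, 3974, 3934 and 4197 at gd14, 4128, 4426 and 4613 at gd16, and 4232, 4148 and 4523 at gd18. At pnd2 it read 5515 and 4374 on replicates 1 and 2, and 10310 on replicate 3, which was above every other array. Rrm2 fell by 0.93 (SE 0.23) and Rrm1 by 0.65 (SE 0.15), with limma adjusted p of 0.015 and 0.00878. Tyms, thymidylate synthase, was dim throughout, between 62.97 and 294.1, and its change was 0.05 ± 0.38. That SE is too wide to tell no change from a fall of the size of Rrm1.

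At the fork itself the genes split. Prim1, the primase subunit that makes RNA primers, fell by 0.58 (SE 0.13, limma adjusted p = 0.0101). Pcna, the sliding clamp, read 12258, 13366 and 11995 at gd12 and 8538, 8268 and 8050 at gd14, groups well apart, yet its adjusted p was 0.0657 in limma with all arrays and 0.000444 without pnd2 replicate 3, where it read 19787 against 10372 and 10610. Pcna then read 10297, 10426 and 9711 at gd16, above its gd14 arrays. Lig1, the ligase that joins the lagging strand, came to -0.55 ± 0.19 and passed only without that array. Pola1, the catalytic subunit of polymerase alpha, overlapped between the stages (-0.13 ± 0.19). Fen1, the flap nuclease, varied from 3572 to 20304 within gd16 alone on its brightest probe set (change -0.48 ± 0.47), and its other probe set gave -0.96.

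**Figure D3:**
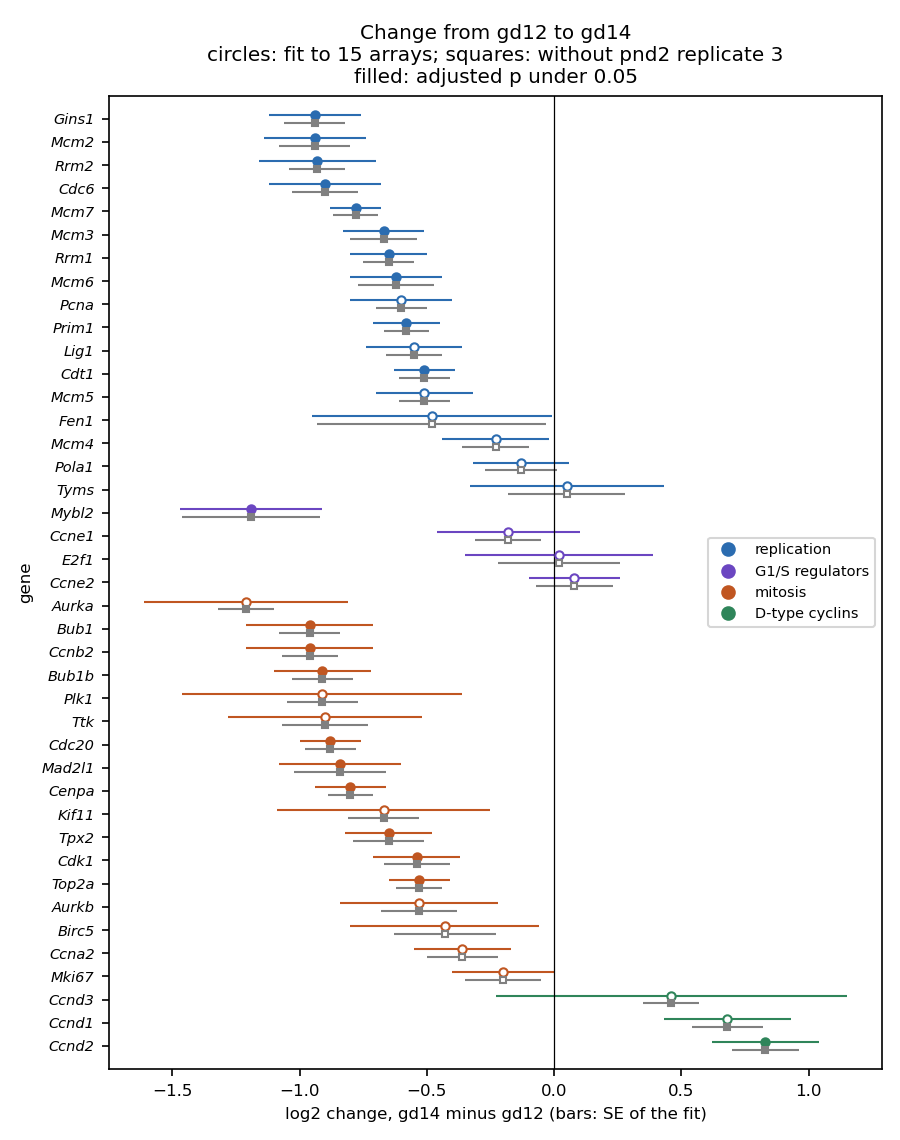
Log2 change from gd12 to gd14 (x axis) of each gene with the SE of the fit as bars, by class; circles use 15 arrays, squares leave out pnd2 replicate 3, and filled symbols have an adjusted p under 0.05. Replication and mitotic genes lie to the left of 0 apart from Tyms, the D-type cyclins to the right, and bars such as those of Plk1, Aurka and Ccnd3 shorten without that array.

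Regulators of S phase entry did not move as a group. Mybl2 encodes B-Myb, a factor that E2F induces and that in turn activates mitotic genes. It read 222.1, 388.3 and 363 at gd12 and 139.3, 110.5 and 139 at gd14, a fall of 1.19 (SE 0.28, limma adjusted p = 0.0105), with 11 of 15 arrays at or above the array's median. E2f1, Ccne1 and Ccne2, the factor itself and the E-type cyclins that start S phase with Cdk2, changed by 0.02 ± 0.37, -0.18 ± 0.28 and 0.08 ± 0.18. A second E2f1 probe set, almost as bright, gave 0.37 to gd14 and 1.06 to gd18, against 0.02 and 0.05 for the brightest. Ccne1 read 3814, 3454 and 4316 at gd12 and 3378, 3357 and 3427 at gd14, so its groups were narrowly apart. None of these 3 was called from gd12 to gd14 with or without pnd2 replicate 3.

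In mitosis the clearest fall was that of Cdc20. It read 12383, 12821 and 10986 at gd12, 6857, 6347 and 6431 at gd14, and 4862, 5624 and 5575 at gd16. Later values were 6020, 5896 and 6561 at gd18 and 8254, 6598 and 7667 at pnd2. All later arrays were below all gd12 arrays, and the change to gd14 was -0.88 ± 0.12 (limma adjusted p = 0.000298). A dim Cdc20 probe set went the other way (0.87), and with the mean of all its probe sets the Cdc20 change was -0.23 and no longer called.

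Of the 4 spindle checkpoint genes, 3 fell. Bub1, Bub1b, Mad2l1 and Ttk hold back anaphase until chromosomes are attached. Bub1b read 4023, 3730 and 3730 at gd12 and 2151, 2092 and 1841 at gd14. Bub1 read 3023, 3833 and 3426 at gd12 and 1743, 1597 and 1910 at gd14. For both genes the gd12 and gd14 arrays were well separated, with changes of -0.91 ± 0.19 and -0.96 ± 0.25 (limma adjusted p = 0.00495 and 0.0206). Mad2l1 fell by 0.84 (limma adjusted p = 0.0339), while Ttk, at -0.90 ± 0.38, passed only without pnd2 replicate 3.

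Cyclin and kinase genes gave mixed calls with 1 direction. Ccnb2, a B-type cyclin that activates Cdk1, read 2411, 2633 and 2414 at gd12 and 1403, 1139 and 1270 at gd14, a fall of 0.96 (SE 0.25, limma adjusted p = 0.0189). Cdk1 fell by 0.54 (SE 0.17, limma adjusted p = 0.0467), a call lost in 14 of 26 alternative settings, and Mcm6 lost its own in 12. Ccna2, the cyclin of S and G2 phase, came to -0.36 ± 0.19 and was not called, although its other probe set gave -0.96.

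Aurka, the kinase that matures centrosomes, had the largest change of the mitotic genes and still missed the threshold. Its signals were 2117, 2329 and 2203 at gd12, 974.6, 925.5 and 940.2 at gd14, 993.5, 847.9 and 906.8 at gd16, and 1028, 874.8 and 914.1 at gd18. At pnd2 it read 996 and 892.5 on replicates 1 and 2 and 205.5 on replicate 3. From gd14 on, every array but the last lay between 847.9 and 1028, and the change of -1.21 had an SE of 0.40 with pnd2 replicate 3 and 0.11 without it (limma adjusted p 0.0619 and 2.21e-06). Plk1, a kinase of mitotic entry, behaved alike, with 1999, 2352 and 2295 at gd12, 1310, 1038 and 1182 at gd14, and 1042, 1112 and 124.7 at pnd2 (-0.91 ± 0.55, limma adjusted p 0.329, and 0.000152 without that array). Aurkb, of the chromosomal passenger complex, and Kif11, the motor that separates spindle poles, also passed only without it.

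Structural genes of the mitotic chromosome and spindle completed the group. Cenpa, the histone that marks centromeres, read 3303, 3363 and 3580 at gd12 and 1880, 2142 and 1868 at gd14 (-0.80 ± 0.14, limma adjusted p = 0.00178). A dimmer Cenpa probe set gave -0.20, and the call was lost in 2 of 26 alternative settings. Tpx2, which nucleates spindle microtubules and activates Aurka, fell by 0.65 (SE 0.17), and Top2a by 0.53 (SE 0.12). Birc5, which encodes survivin of the passenger complex, came to -0.43 ± 0.37 and was not called.

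Mki67, the gene of the Ki-67 antigen used in pathology to mark cycling cells, was not called for the step. Its signals were 9870, 9028 and 10747 at gd12, 7793, 9367 and 8731 at gd14, 7814, 11053 and 9797 at gd16, and 9464, 9225 and 8159 at gd18. At pnd2 they were 11607, 7471 and 14429. The stages overlapped throughout, and the change to gd14 was -0.20 ± 0.20 (limma adjusted p 0.605, and 0.366 without pnd2 replicate 3). With that SE a change of the size of Cdt1 (-0.51) is not excluded.

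**Figure D4:**
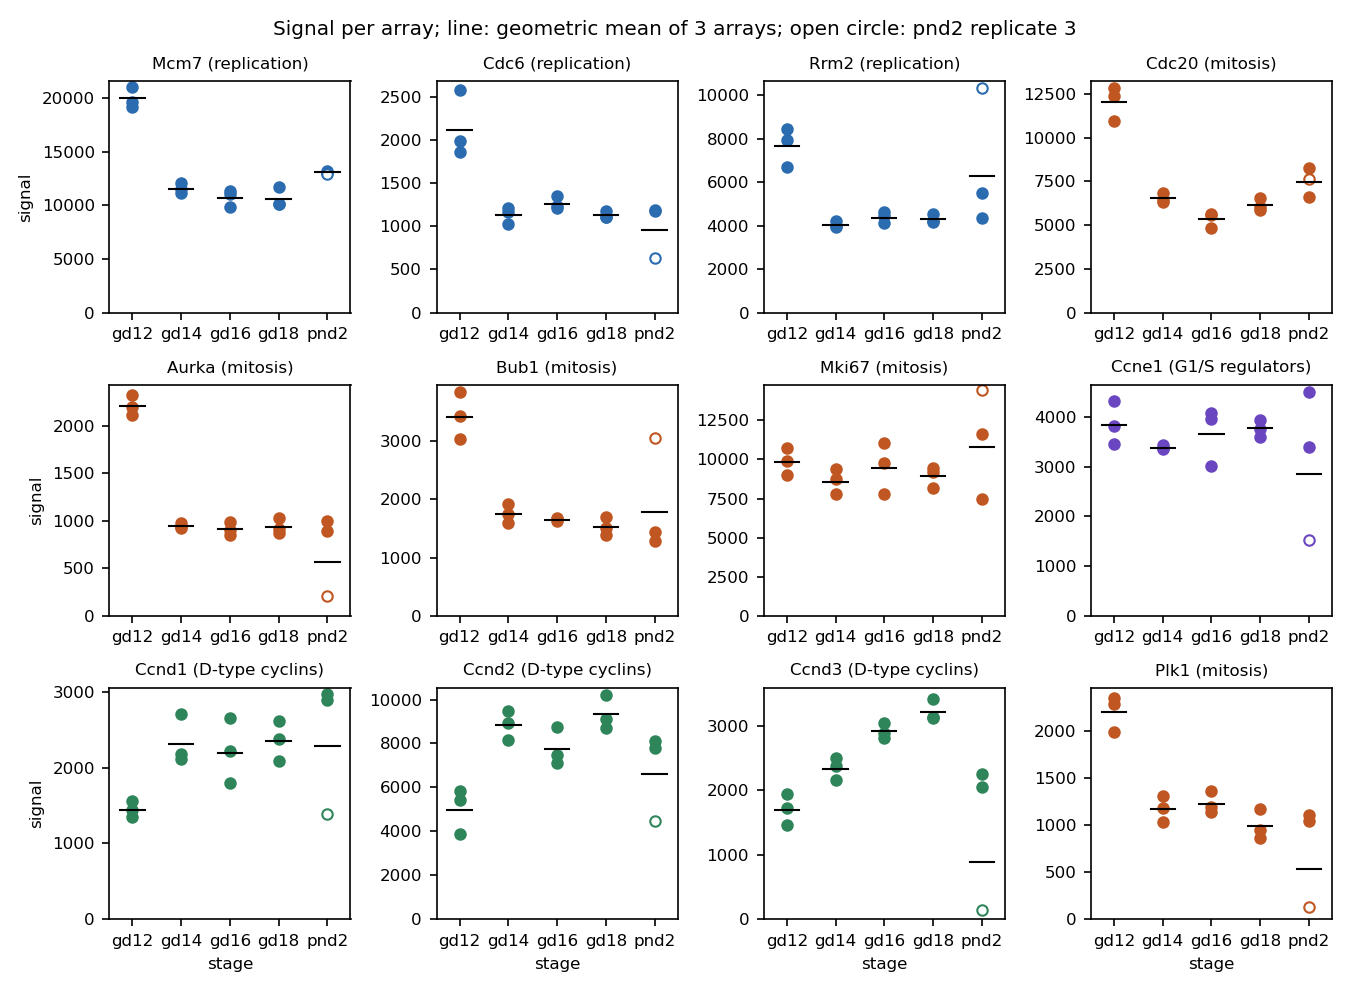
Signal on each array (y axis, linear from 0) by stage for 12 of the genes, with the geometric mean of the 3 arrays as a line and pnd2 replicate 3 as an open circle. For Mcm7, Cdc20 and Aurka all gd12 arrays lie above all later arrays, and Mki67 overlaps between stages. Ccne1 is narrowly apart between gd12 and gd14, and the D-type cyclins are higher at gd14 than at gd12.

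The D-type cyclins ran against the other classes. Ccnd2 read 5836, 3878 and 5424 at gd12, 9462, 8925 and 8155 at gd14, 8729, 7111 and 7455 at gd16, and 9112, 10211 and 8726 at gd18. At pnd2 it read 7797, 8116 and 4483. Its fetal arrays after gd12 were all above gd12, a rise of 0.83 ± 0.21 to gd14 (limma adjusted p = 0.0174), or 1.77-fold. All 7 of its probe sets had higher values at gd14, by 0.35 to 1.18 on the log2 scale.

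Ccnd1 read 1437, 1557 and 1349 at gd12, 2111, 2714 and 2182 at gd14, 1796, 2656 and 2220 at gd16, 2089, 2378 and 2618 at gd18, and 2976, 2892 and 1393 at pnd2. Only the last array reached down to the gd12 level. The change to gd14 was 0.68 ± 0.25 (limma adjusted p 0.0992, and 0.0023 without pnd2 replicate 3).

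Ccnd3 climbed in steps through fetal life, from 1727, 1454 and 1940 at gd12 to 2507, 2158 and 2381 at gd14, 2891, 3045 and 2813 at gd16, and 3129, 3114 and 3423 at gd18. Each of these stages lay wholly above the one before. At pnd2 it read 2256 and 2045 on replicates 1 and 2 and 138 on replicate 3, all below gd18. With that array the SE of every Ccnd3 change was 0.69 and none was called. Without it Ccnd3 rose by 0.46 ± 0.11 from gd12 to gd14 and by 0.92 ± 0.11 from gd12 to gd18 (limma adjusted p = 0.00626 and 1.34e-05), and fell by 0.58 from gd18 to pnd2 (SE 0.13, limma adjusted p = 0.0332).

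After gd14 no further change was called in the fetal organ. From gd14 to gd16 limma called 0 of the 41 genes (0.131% of all genes), with 1 at an unadjusted p under 0.05, and from gd16 to gd18 it called 0 (0.327% of all genes), with 0 at that level. Both counts were also 0 without pnd2 replicate 3, where 1.14% and 1.77% of all genes were called. From gd14 to gd16 the lowest values were those of Cdc20 (-0.29 ± 0.12), Mcm2 (-0.28 ± 0.20) and Ccnd2 (-0.19 ± 0.21), and the highest those of Fen1 (0.38 ± 0.47), Ccnd3 (0.31 ± 0.69) and Pcna (0.29 ± 0.20). From gd16 to gd18 they were Fen1 (-0.52 ± 0.47), Plk1 (-0.31 ± 0.55) and Pola1 (-0.23 ± 0.19), against Mybl2 (0.56 ± 0.28), Ccnd2 (0.27 ± 0.21) and Ccnb2 (0.22 ± 0.25). Few genes of any kind were called in these intervals, so these counts do not show that the genes held a constant level.

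Birth brought no called change either. From gd18 to pnd2 limma called 0 of the 41 genes (0.598% of all genes), with 7 at an unadjusted p under 0.05, namely Mcm7, Rrm2, Prim1 and Cdc20 with higher values and Bub1b, Ccnd2 and Ccnd3 with lower ones. Without pnd2 replicate 3 the Ccnd3 fall was the sole call (1.89% of all genes, 1.1% lower). Of the largest values with all arrays, Ccnd3 (-1.85 ± 0.69), Plk1 (-0.86 ± 0.55) and Kif11 (-0.79 ± 0.42) were lower, and Rrm2 (0.55 ± 0.23), Ccnb2 (0.49 ± 0.25) and Ttk (0.46 ± 0.38) higher. All 6 differed by over 2-fold between replicate 3 and the mean of the other pnd2 arrays, and without it Plk1 changed by 0.13 ± 0.15 and Ttk by -0.16 ± 0.19.

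Levels were also expressed against gd12. The median replication gene stood at 66.2% of its gd12 level at gd14, 65.6% at gd16, 65.2% at gd18 and 66.6% at pnd2 (65.8% without replicate 3). For mitotic genes the medians were 57.6%, 62.4%, 67.9% and 66.2% (67.2% without replicate 3). D-type cyclins stood at 160%, 155%, 187% and 132% (160% without replicate 3). G1/S regulators had medians of 94.6%, 103%, 101% and 75.8% (106% without replicate 3), within which Mybl2 stood at 43.7%, 40.1%, 59% and 45.9%. All 3 gd12 arrays lay above all 12 later arrays for 18 of the 41 genes (9.38% of all genes), of which 9 were replication and 9 mitotic genes, and above the other 11 for 27 without pnd2 replicate 3 (12.7% of all genes). All 3 gd12 arrays lay below those 11 for Ccnd1, Ccnd2 and Ccnd3 and for no other of the 41 (11.4% of all genes), and below all 12 later arrays for 0 (7.85% of all genes).

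**Figure D5:**
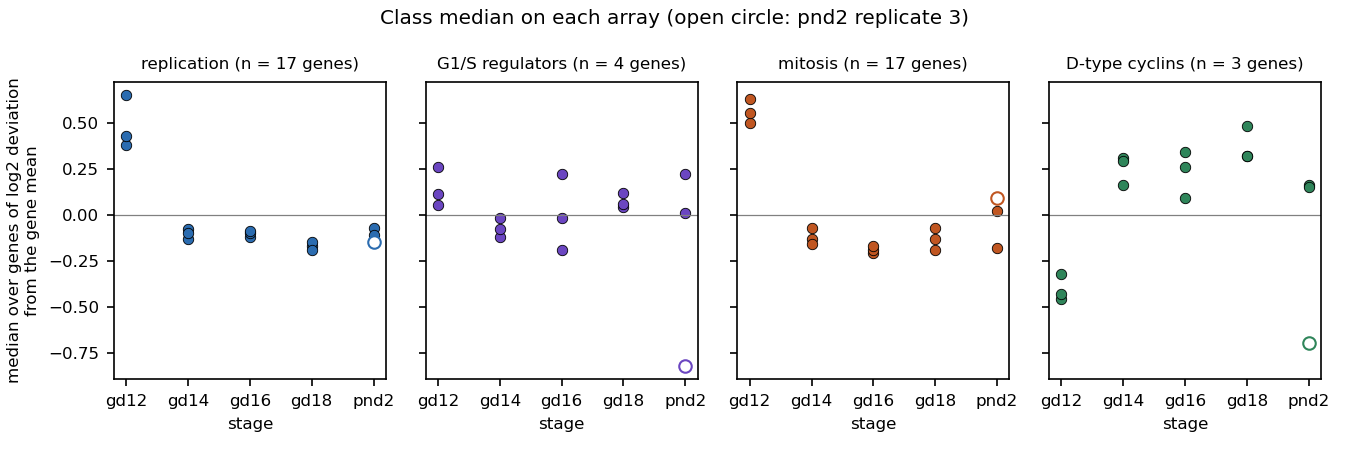
Median over the genes of a class of the log2 deviation from each gene's mean over 15 arrays (y axis), on each array by stage, with pnd2 replicate 3 as an open circle. Replication genes sit at 0.38 to 0.65 at gd12 and below 0 on all 12 later arrays, mitotic genes at 0.50 to 0.63 at gd12, and D-type cyclins at -0.46 to -0.32 at gd12 and above 0 later except on pnd2 replicate 3.

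Over the whole fetal span, from gd12 to gd18, limma called 18 of the 41 genes lower and 1 higher (22.9% of all genes, 10.2% lower and 12.7% higher): 10 replication genes, 8 mitotic genes and, higher, Ccnd2. Mcm2 had the largest fall, of 1.43 (SE 0.20, limma adjusted p = 0.000138), 2.7-fold, and Mcm7 fell by 0.91 and Mcm5 by 0.77. Among mitotic genes Aurka fell by 1.23 (SE 0.40), Bub1 by 1.15 (SE 0.25), Bub1b by 0.99 (SE 0.19) and Cdc20 by 0.97 (SE 0.12), with limma adjusted p between 5.83e-05 and 0.0387. The Aurka, Ccnb2 and Cdk1 calls were each lost in 13 of 26 alternative settings, and the mitotic count came to 5 without any 1 of the gd12 or gd16 arrays, gd14 replicates 11 or 12, or gd18 replicates 4 or 5. Ccnd2 rose by 0.91 ± 0.21 (limma adjusted p = 0.00625). Without pnd2 replicate 3 the count was 32 of 41, with all 19 among them, where 41.3% of all genes were called (20.4% lower, 20.9% higher). The gd14 and gd18 comparisons share the gd12 arrays, so their values are set side by side and not taken as separate support.

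From gd12 to pnd2 limma called 20 of the 41 genes lower and 0 higher (27.5% of all genes, 13.1% lower and 14.4% higher), with 1 higher at an unadjusted p under 0.05. The calls were 10 replication genes, 9 mitotic genes and Mybl2. With each array centred on its median, 1156 of all genes were called lower and 1978 higher here, against 1599 and 1759 with the deposited scale, and 17 of the 41 genes were called. Mcm2 (-1.37 ± 0.20), Mcm3 (-1.10 ± 0.16) and Cdc6 (-1.13 ± 0.22) led the replication genes, and without pnd2 replicate 3 they came to -1.15 ± 0.15, -1.01 ± 0.14 and -0.84 ± 0.14. For the mitotic genes Plk1 (-2.01 ± 0.55), Aurka (-1.92 ± 0.40) and Kif11 (-1.30 ± 0.42) were called with that array, and at -1.03 ± 0.15, -1.22 ± 0.13 and -0.57 ± 0.16 without it. Bub1b came to -1.39 ± 0.19 with it and -1.16 ± 0.13 without it. Without that array 29 of the 41 genes were called (35.9% of all genes), 26 lower and the 3 D-type cyclins higher.

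Over all 5 stages at once, the moderated F test called 21 of the 41 genes (51.2%, against 26.4% of all genes): 11 replication genes, 8 mitotic genes, Mybl2 and Ccnd2. Without pnd2 replicate 3 it called 31, against 46.1% of all genes. Leaving out gd12 replicate 14 instead brought the count to 8, and leaving out gd12 replicate 15 to 13. The share of all genes called by the F test in these fits is not given here. Calls among all genes from gd12 to gd14 also dropped without gd12 replicate 14, to 853 from 1523.

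Over all 15 arrays, levels within classes were correlated across stages and hardly within them. As a description over 15 arrays that share stage, scaling and organ, the median pairwise correlation was 0.35 among replication and G1/S genes, 0.51 among mitotic genes and 0.48 between those sets, and 0.54, 0.73 and 0.65 without pnd2 replicate 3. With each stage's mean removed the medians were 0.01, -0.03 and 0.05 over all 15 arrays. These include pnd2 replicate 3, which departs in both directions, and were not computed without it. Ccnd1, Ccnd2 and Ccnd3 had median correlations of -0.46, -0.47 and -0.06 with the other 38 genes, and -0.66, -0.81 and -0.68 without that array.

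Further genes of the same machinery, listed apart from the 41, had mostly lower calls too. Of 41 other replication genes tested, 10 fell and 0 rose from gd12 to gd14 by limma (5.75% of all genes were lower; median log2 change -0.50), with 18 lower and 0 higher at an unadjusted p under 0.05. The largest falls were in Rpa2, a subunit of the single-strand binding protein (-1.26 ± 0.27), Dbf4, the activator of the Cdc7 kinase (-1.19 ± 0.20), Mcm10, a fork assembly factor (-1.09 ± 0.20), and Dut, which removes dUTP (-1.05 ± 0.22), with limma adjusted p between 0.00114 and 0.00681. From gd12 to gd18 14 of them fell (10.2% of all genes), led by Dbf4 (-1.25), Mcm10 (-1.23), Rfc4 (-1.19) and Rpa2 (-1.09). From gd12 to pnd2 12 fell (13.1% of all genes), led by Orc1 (-1.36), Mcm10 (-1.22), Wdhd1 (-1.17) and Rpa2 (-1.15), and from gd18 to pnd2 Rnaseh2b rose (0.85 ± 0.18, limma adjusted p = 0.0481).

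Of 47 other mitotic genes tested, 15 fell and 0 rose from gd12 to gd14 by limma (5.75% of all genes were lower; median log2 change -0.56), with 28 lower and 1 higher at an unadjusted p under 0.05. Pttg1, the securin that guards sister chromatids (-1.40 ± 0.31), Nek2, a centrosome kinase (-1.40 ± 0.38), Ube2c, an E2 enzyme of the anaphase-promoting complex (-1.0 ± 0.19), and Cenpf, a kinetochore protein (-0.94 ± 0.17), fell most. From gd12 to gd18 11 fell (10.2% of all genes), led by Cenpe (-1.0), Kif2c (-0.94), Kif20a (-0.87) and Ube2c (-0.84), while the phosphatase gene Cdc25b rose (1.16 ± 0.29). From gd12 to pnd2 14 fell (13.1% of all genes), led by Cdc25a (-1.71), Espl1 (-1.05), Kif20a (-1.03) and Ube2c (-0.94). Without pnd2 replicate 3 the counts of lower genes at gd14, gd18 and pnd2 were 23, 27 and 23 for replication and 30, 22 and 21 for mitosis, where 14.3%, 20.4% and 17.1% of all genes were lower.

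Kinases, inhibitors and pocket proteins of the cell cycle formed another list, in which members oppose each other in function. Of 22 tested, 4 rose and 1 fell from gd12 to gd14 (median log2 change 0.22), where 6.72% of all genes rose and 5.75% fell. With pnd2 replicate 3 left out, 2 fell and 7 rose by gd14, 4 and 10 by gd18, and 4 and 8 by pnd2, where 14.3% and 15.9%, 20.4% and 20.9%, and 17.1% and 18.8% of all genes did, so the counts of lower genes lie near those of all genes. The clearest was Cdkn2c, the inhibitor p18 of Cdk4 and Cdk6, which read 129.8, 182.7 and 217 at gd12, 302.4, 284.8 and 394.7 at gd14, and 638.5, 667.5 and 580.8 at gd16. It went on to 925.2, 1017 and 952.7 at gd18 and 1212, 1208 and 1577 at pnd2. Each stage was wholly above the one before, and the rise from gd12 was 0.85 ± 0.20 at gd14, 2.37 ± 0.20 at gd18 and 2.82 ± 0.20 at pnd2 (limma adjusted p = 0.0128, 1.63e-06 and 2.4e-07).

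Cdkn1a, the inhibitor p21, read 701.9, 402.2 and 851.9 at gd12, 1625, 1834 and 1427 at gd14, and 732, 797 and 756.3 at gd16. Its gd14 arrays were above all gd12 and gd16 arrays, with a rise of 1.36 ± 0.42 to gd14 (limma adjusted p = 0.0456), and the change from gd14 to gd16 was -1.07 ± 0.42, not called with all arrays and called without pnd2 replicate 3 (SE 0.21, limma adjusted p = 0.0209). Cdkn1b, the inhibitor p27, was called in none of the 6 comparisons with all arrays, at 0.18 ± 0.29 from gd12 to gd14 and 0.69 ± 0.29 from gd12 to gd18, the latter called without that array (limma adjusted p = 0.0127). Cdkn1c, the imprinted inhibitor p57, came to 0.72 ± 0.31 by gd14, called only without that array (limma adjusted p = 0.0058), and rose by 0.90 ± 0.31 from gd12 to gd18 (limma adjusted p = 0.0492). Cdk6, a partner of the D-type cyclins, rose by 0.86 ± 0.26 to gd14 and 1.44 ± 0.26 to gd18, and Btg1, an antiproliferative gene, by 0.70 ± 0.15 to gd14, while E2f7, a repressor of the E2F family, fell by 0.65 (SE 0.19). From gd12 to gd18 7 of this list rose and 0 fell by limma (12.7% and 10.2% of all genes; 2 of the list lower at an unadjusted p under 0.05), with Rbl2 at 1.26 ± 0.32 and Cdkn2d at 1.21 ± 0.41 after Cdkn2c and Cdk6.

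From gd12 to pnd2 5 of the list rose and 3 fell, where 14.4% of all genes rose and 13.1% fell. Rbl2, the pocket protein p130 (1.5 ± 0.32), Ccng1 (1.14 ± 0.22) and Cdk6 (0.90 ± 0.26) rose after Cdkn2c, and without that array they came to 1.15 ± 0.28, 0.80 ± 0.12 and 1.19 ± 0.21. Cdk2 (-2.08 ± 0.51), E2f6 (-1.05 ± 0.27) and Cdk4 (-0.86 ± 0.28) fell, and without pnd2 replicate 3 they came to -1.58 ± 0.47, -0.77 ± 0.23 and -0.44 ± 0.16. Cdk2 read 1174, 194.5 and 161.2 at pnd2, so replicates 2 and 3 were low, while replicate 1 lay within the gd18 range of 789.2 to 1476.

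Markers of other tissues moved with the same step. The summed signal of 12 germ cell markers ran from 16839 to 25913 at gd12, from 1348 to 2147 at gd14 and from 275 to 622 at gd18, where all 12 were below the array median on every array. From gd12 to gd14 7 of their 10 tested genes were called lower, as were 5.75% of all genes, and 1 had a higher value. The 12 measured markers of gonadal supporting and interstitial cells summed to 7877 to 12131 at gd12 and 3304 to 4544 at gd14. Of 10 tested, 6 were called lower and 3 had higher values, by up to 2.31 on the log2 scale. For 9 erythroid markers the sums were 42663 to 66109 at gd12, 26939 to 36702 at gd14 and 878 to 1739 at gd18. At gd14 2 of 8 tested were called lower and 1 had a higher value. Each of these sums was higher on every gd12 array than on any gd14 array.

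In the opposite direction, 12 macrophage markers summed to 2433 to 5466 at gd12 and 9732 to 11751 at gd14. Of these, 8 of 12 were called higher, as were 6.72% of all genes. The 12 stromal and smooth muscle markers summed to 46038 to 59442 at gd12, 129745 to 143253 at gd14 and 212153 to 234078 at pnd2. At gd14 8 of 12 were called higher and 1 had a lower value. The 11 measured markers of the Wolffian duct and its epithelium, which check the labelled organ, summed to 7556 to 9102 at gd12, 12306 to 13405 at gd14 and 23952 to 27086 at pnd2, with 3 of 10 tested called higher at gd14 and 2 with lower values. Sums weigh bright genes most. The part of these shifts in the fall of the replication and mitotic genes was not tested.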

How the data were processed

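The deposited table held linear signal intensity values of 45101 probe sets on 16 arrays, made by the authors with GCOS, the Affymetrix scanner software, per the submitters' processing notes. No version or signal algorithm is given in the sources used here. Each array's mean without the lowest and highest 2% of probe sets was 500, so arrays share a single scaling factor each, and a change in many bright transcripts would shift all others of an array. RNA had passed 2 rounds of amplification per the labels' protocols, which favours 3' ends. Array medians ran from 110.3 to 134, and came to 81.24 on pnd2 replicate 3.

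Values were taken as log2(signal + 16), so folds of dim genes are understated. Each gene was read from its brightest probe set with 1 symbol, and tested if at or above its array's median on at least 3 of 15 arrays. With limma 3.58.1 in R 4.3.3, 1 mean per stage was fitted to the 15 epididymis arrays with moderated variances and an intensity trend. The 6 comparisons and a moderated F test were each adjusted by Benjamini-Hochberg over 12216 genes, with calls at an adjusted p under 0.05. The fit was tested on simulated data. The newborn pool stayed out of the fit. The labels give no batch. Each stage has 3 animals, which limits the precision.

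Members called from gd12 to gd14 were described by function, and for the longer spans only some of those called were named. Where 0 were called the 3 largest values in each direction were given. Up to 4 called genes of each further list were named per direction, and Cdkn1a, Cdkn1b and Cdkn1c always. The 41 genes, the lists, the markers, the motifs and the alternatives were chosen with earlier results of these data known. Alternatives were other scalings, constants, filters, probe set rules, no trend, array weights and leaving out arrays. Promoters came from RefSeq, and an overlap of motif matches was allowed.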

Additional observations from a re-analysis of the deposited data

How the results depend on the processing

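Over 26 alternatives, 324 of 364 counts of called members stayed within 1.5 times the main count, and 40 did not. The 324 include every count that was 0 in both fits, and those say little about stability. Single called members kept their direction in all, with 172 calls lost, 1388 kept and 0 reversed. From gd14 to gd16, gd16 to gd18 and gd18 to pnd2, replication and mitotic calls were 0 in every alternative. With a gene's probe sets averaged, the F test called 11 members against 21, replication and G1/S calls were 4 against 11 from gd12 to gd14 and 6 against 10 from gd12 to gd18, mitotic calls 5 against 9 and 4 against 8, and D-type cyclin calls 1 against 2 of 18. With probe sets free of cross-hybridisation marks, mitotic calls were 4 in both comparisons. Array weights, which gave pnd2 replicate 3 a weight of 0.0461, led to 32 by the F test, 14 and 13 mitotic calls and 7 for D-type cyclins. Without pnd2 replicate 3, gd14 replicate 10 and gd16 replicate 9 together, mitotic calls were 14 and 14 and D-type cyclin calls 8. For averaged and unmarked probe sets, array weights and this last fit, the share of all genes called is not given here. A change in the members therefore cannot be told there from a general gain or loss of calls. Median centring gave 4 D-type cyclin calls, and moved the median of all genes from gd18 to pnd2 from -0.05 to 0.19. There 11 genes were called lower and 33 higher, against 41 and 32, and 51 and 62 with quantile normalization. Leaving out 1 array at a time gave 8 (without gd12 replicate 14) to 31 (without pnd2 replicate 3) by the F test, 1 (without gd12 replicate 14, gd14 replicate 10 or gd14 replicate 11) to 10 for D-type cyclins, 3 to 14 and 5 to 14 mitotic calls and 4 to 14 and 7 to 15 replication and G1/S calls (gd12 to gd14, gd12 to gd18). In the same fits all genes called ran from 853 to 3634 (gd12 to gd14) and from 1859 to 4976 (gd12 to gd18). The causes were not tested. Of 58 further probe sets of the members, 47 passed the filter and 42 of these had the sign of the brightest from gd12 to gd14; the exceptions belong to Mcm5, Cdc20, Aurka, Ttk and Kif11. No paired analysis was possible because each epididymis array held a different animal and no dam gave more than 1.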

Other observations

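The newborn pool, a single array of whole animals, gives a level of the same genes outside the epididymis. It lay below all 15 epididymis arrays for 25 of the 41 genes (24.2% of all genes) and above all 15 for 0 (18.4% of all genes). The 25 comprised 14 of 17 mitotic genes, 10 of 17 replication genes and Ccne2. Mki67 read 3223 in the pool against 7471 to 14429 in the epididymis, Cdc20 3002 against 4862 to 12821, and Bub1 331.1 against 1277 to 3833. Mcm7 read 8676 against 9867 to 21011. The D-type cyclins lay within the epididymal range, with Ccnd1 at 2826, Ccnd2 at 4631 and Ccnd3 at 1940. With 1 array of pooled animals these values have no replicate check.

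On pnd2 replicate 3, probe sets of the same gene moved differently. Against the mean of pnd2 replicates 1 and 2, the 4 Mcm7 probe sets differed by -3.97, -1.64, -0.02 and 0.32 on the log2 scale, the 3 Rrm2 probe sets by -2.26, -0.07 and 1.07, and the brightest and next brightest Rrm1 probe sets by -0.47 and -5.06. Among the brightest probe sets, Ttk read 1399 there against 356.6 and 394.1, and Birc5 3482 against 944 and 1138, while Kif11 read 271.9 against 1512 and 1088. The order of these values with distance from the 3' end was not examined.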
